A study of Mus musculus with 249 samples.

Results

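The region described here is the neighbourhood of Sox2 on mouse chromosome 3, from 33 to 36 Mb of the mm9 assembly (chr3:33000001-36000000). Its members are defined by position and not by their values, and are the 75 windows of 40 kb that tile this interval, of 68162 windows listed genome-wide and 3990 on chromosome 3. Sox2 (ENSMUSG00000074637.3) is a gene of 1 exon at chr3:34548927-34551383 on the plus strand, and lies within the window chr3:34520001-34560000, called the Sox2 window. The Sox2 control region (SCR) was taken as chr3:34650001-34670000. It lies within the window chr3:34640001-34680000, called the SCR window, and overlaps no gene of the GENCODE vM1 annotation. The SCR interval starts 98.6 kb past the end of Sox2. The Sox2 and SCR windows are 120 kb apart from start to start, with 2 windows between them.

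Sox2 encodes a transcription factor that keeps embryonic stem (ES) cells pluripotent together with Oct4 (Pou5f1) and Nanog. Expression of Sox2 in ES cells depends on the SCR, a distal enhancer that is bound by the pluripotency factors and that acts on the promoter across intervening DNA. Sox2 also lies inside the transcribed unit of Sox2ot, a long non-coding RNA on the same strand. A distal enhancer and its promoter are thought to meet when the chromatin fibre folds, and genome architecture mapping (GAM) measures such folding without ligation. Nuclei are cut at random angles, and the DNA of single slices is sequenced. Proximity is then read from how often a pair of loci is recovered from the same slices.

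The data are 249 multiplex-GAM libraries from 46C cells, a mouse ES cell line of strain 129/Ola that carries a Sox1-GFP reporter. For each library, nuclear profiles were cut from cryosections by laser microdissection and several were put in 1 tube, 4 per tube by the sample titles. Per the study's text some cell profiles miss the nucleus, so a library held fewer nuclear profiles on average than its title gives. Each library is 1 column of calls, in which a window is positive or not. The calls come from DNA, so no expression marker was at hand to check the cell label. By the study's text the collection is 1 biological replicate of these cells, so errors over libraries cover the sampling of nuclear profiles and not the spread between cultures. By their titles, these libraries belong to 20 groups from 11 experiments, which differ in the steps by which profiles were stained, stored, lysed and amplified. They are the full collection (54 libraries), 3 reagent volume protocols A, B and C (10, 11 and 10), 1 and 2 ul of proteinase K (5 and 6), tubes frozen after incubation or left unfrozen (10 and 11), and tubes frozen early or late (12 and 11). The others are 20, 23 and 25 PCR cycles (4, 5 and 3), cresyl violet stained and unstained sections (16 and 10), large and small amplification kits (11 and 12), and unstained sections of the propidium iodide (20), eosin (18) and SYBR Gold (10) tests. For the SYBR Gold and proteinase K libraries the protocol text differs from the titles, and the titles were followed. No other genotype or treatment was used, and all the libraries entered 1 map.

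Autosomal coverage, the percent of autosomal windows that were positive, ranged from 3.23% to 48.2% over the libraries. The number of reads behind a call is unknown, so a negative window can be absent or too thinly sequenced. No pair of libraries was identical, and the closest pair differed in 4550 windows. Of the 75 windows of the region, all were positive in at least 25 libraries, the minimum set for entering a map, against 3901 of 3990 on chromosome 3.

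The sequences on which the locus turns are the Sox2 promoter and the SCR. The 250 bases before the Sox2 start (chr3:34548677-34548926, plus strand, assembly NCBIM37, which is mm9) are shown because they are the gene's end of the pair. The stretch of 300 bases of the SCR (chr3:34655306-34655605, plus strand) is shown as the first with the highest sum of matches to the full octamer ATGCAAAT, bound by Oct4, and the SOX core, bound by Sox2 and its relatives, with both strands searched. All of its matches were SOX cores. Capitals mark the SOX core ACAANG and the octamer core ATGCAAA, or their reverse complements.
Sox2 promoter: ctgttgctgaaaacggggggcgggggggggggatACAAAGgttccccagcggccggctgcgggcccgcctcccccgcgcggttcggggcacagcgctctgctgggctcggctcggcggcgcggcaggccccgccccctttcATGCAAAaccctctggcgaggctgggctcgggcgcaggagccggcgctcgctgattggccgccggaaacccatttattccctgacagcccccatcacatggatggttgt
SCR stretch: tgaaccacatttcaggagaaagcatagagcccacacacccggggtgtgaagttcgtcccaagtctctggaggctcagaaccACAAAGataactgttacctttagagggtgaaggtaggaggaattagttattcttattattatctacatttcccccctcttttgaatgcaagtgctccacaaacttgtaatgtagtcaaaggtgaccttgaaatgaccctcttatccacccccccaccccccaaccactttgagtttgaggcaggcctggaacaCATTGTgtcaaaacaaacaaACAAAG

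The promoter held 1 octamer core and 1 SOX core. A SOX core was found in 33.9% and an octamer core in 4.35% of the 250-base promoters of 1057 protein-coding genes of chromosome 3, and 1.89% held both. The SCR stretch held 3 SOX cores and no octamer core. As many matches were found in 4.04% of the 300-base tiles of chromosome 3, and 51.9% of these tiles held at least 1 SOX core, so these short motifs are common. The full octamer ATGCAAAT was found 0 times in the 20 kb of the SCR and the octamer core 2 times. In the whole SCR window the octamer core had 6 matches, against a median of 12 over 3905 windows of chromosome 3 (percentile 8.19), and the SOX core 90 against a median of 98 (percentile 21.5). The Sox2 window had 5 octamer cores (percentile 4.55) and 102 SOX cores (percentile 62.3). Neither window was thus rich in the octamer core as a whole. The octamer core was added after the full octamer had given no match. A match describes letters and not a bound site.

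The first question was how often the locus was sampled, since windows that are rarely positive cannot be placed in a map. The Sox2 window was positive in 55 of 249 libraries, or 22.1% (95% Clopper-Pearson interval 17.1 to 27.8), at percentile 76.9 of chromosome 3 windows. The windows between Sox2 and the SCR were positive in 57 and 58 libraries. The SCR window was positive in 69 libraries, or 27.7% (interval 22.2 to 33.7), at percentile 98.2. No window of the region was positive in more libraries than the SCR window. The SCR window was positive without the Sox2 window in 25 libraries, and the Sox2 window without the SCR window in 11 (exact McNemar test, two-sided, p = 0.0288, chosen after the counts were seen). The GC content of the windows was close, with 45.7% for Sox2 and 45.9% for the SCR, against a chromosome 3 median of 39.96%. Whether base composition has a part in the detection was not tested.

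Over the 75 windows of the region, detection ranged from 40 to 69 libraries with a median of 52, against a median of 49 on chromosome 3. After the SCR window, the windows most often positive were at 560 kb upstream of Sox2 (66 libraries), which holds Fxr1, for an RNA-binding protein of the fragile X family, and Dnajc19, for a mitochondrial co-chaperone, and at 1080 kb downstream (66 libraries), in the gene desert before Atp11b. Another Fxr1 window 640 kb upstream was positive in 63 libraries, and the window just before Sox2, inside Sox2ot, in 62, as were the windows 160 and 1040 kb downstream. The windows least often positive lay 1000 and 880 kb upstream (40 libraries each), in the gene-poor stretch between Pex5l and Ttc14, and were followed by 3 windows with 41 libraries each, at Ccdc39 800 kb upstream, in the gene desert 520 kb downstream, and 1440 kb downstream at Acad9, for a mitochondrial acyl-CoA dehydrogenase. The 17 windows with a protein-coding gene were positive in a median of 55 libraries and the 58 windows without one in a median of 51. Their ranges overlapped, at 41 to 66 and 40 to 69 libraries.

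**Figure D1:**
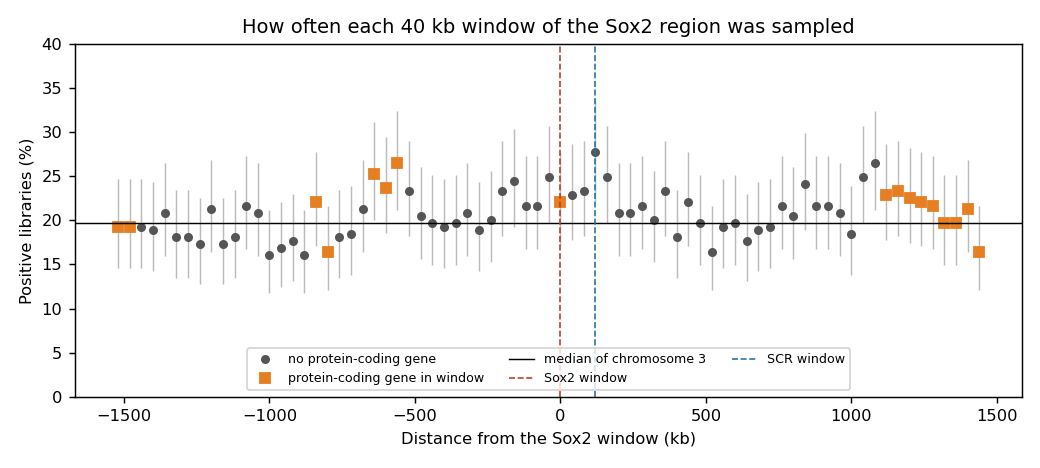
Percent of the 249 libraries in which each 40 kb window of the region was positive, by distance from the Sox2 window in kb. Bars are 95% Clopper-Pearson intervals, squares mark windows with a protein-coding gene, the horizontal line is the chromosome 3 median, and the SCR window at 120 kb is the highest point, at 27.7%.

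The next comparison asked whether Sox2 and the SCR were found together more often than windows of equal distance. The 2 windows were positive together in 44 libraries, where independent sampling would give 15.2. The SCR window was thus positive in 80% of the 55 libraries with the Sox2 window (95% Clopper-Pearson interval 67.0 to 89.6), and the Sox2 window in 63.8% of the 69 libraries with the SCR window. Neither was positive in 169 libraries. Linkage was expressed as D′, the co-segregation of a pair beyond independence as a share of the largest value its detection frequencies allow, so that 0 is independence and 1 is full linkage. D′ of Sox2 and the SCR was 0.723 ± 0.0720 (jackknife SE over 249 libraries). The 3885 pairs of chromosome 3 windows that are 120 kb apart had a mean D′ of 0.522 ± 0.0860 (SD over pairs). The excess over that mean was 0.201 ± 0.0724 (95% interval 0.0587 to 0.344), with an unadjusted p of 0.00585 by a Wald test on the jackknife SE over the 249 libraries. Of these pairs, 41 (1.06%) had as high a D′. In the 198 libraries with coverage from 10 to 30% the excess was 0.147 ± 0.0846, at percentile 93.7 of such pairs, and its unadjusted p of 0.0847 by the same test missed the threshold. After Benjamini-Hochberg adjustment over all 288689 chromosome 3 pairs up to 3 Mb apart the p was 0.681, so the pair did not pass the threshold of 0.05 in a search of the whole chromosome.

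**Figure D2:**
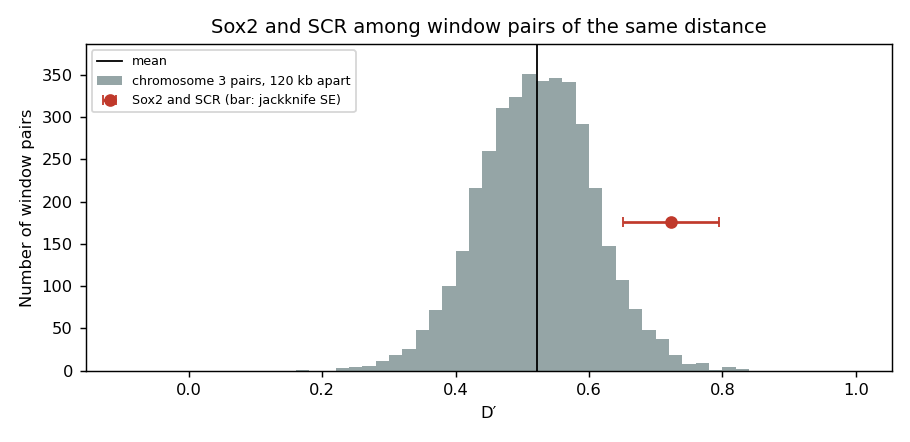
Number of chromosome 3 window pairs 120 kb apart by their D′ (grey bars), with their mean (line) and the pair of Sox2 and SCR windows (red point, its height has no meaning; bar, jackknife SE). The pair lies at 0.723, above the mean of 0.522 and above 99.0% of the pairs.

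Downstream of Sox2, linkage did not fall with distance as far as the SCR. D′ of the Sox2 window was 0.552 ± 0.0774 with the window 40 kb downstream, 0.550 ± 0.0778 with the window 80 kb downstream and 0.723 with the SCR window, 120 kb downstream. On chromosome 3 as a whole the mean D′ fell over the same steps from 0.627 to 0.556 and 0.522. Upstream, D′ of the Sox2 window was 0.709 with its neighbour at 40 kb (43 libraries positive for both), close to the value with the SCR, and 0.525 and 0.620 with the windows at 80 and 120 kb. Downstream, the excess over the distance mean was -0.0754 and -0.00659 for the nearer windows. D′ of Sox2 with the SCR exceeded D′ of Sox2 with the next window by 0.171 ± 0.0747 and with the one after it by 0.174 ± 0.0878 (jackknife SE). Once the distance mean of each pair had been subtracted, the differences were 0.277 ± 0.0748 and 0.208 ± 0.0876. Seen from the SCR window, D′ was 0.642 ± 0.0752 with its neighbour towards Sox2, 0.757 ± 0.0675 with the window 80 kb away, which lies next to Sox2, and 0.723 with Sox2. The window next to Sox2 was positive together with the SCR window in 47 libraries, and its excess was 0.201 ± 0.0670 (unadjusted p = 0.00296, adjusted p = 0.618, Wald test on the jackknife SE). These differences between pairs were chosen after the values had been seen and are given without a test.

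Shifting the 120 kb pair along the chromosome gave lower values. The 12 pairs of the same distance that start up to 240 kb before or after the Sox2 window had a D′ from 0.328 to 0.620 and were positive together in 26 to 41 libraries. The nearest shifts, 1 window to either side, had a D′ of 0.541 and 0.486. D′ of Sox2 with the window after the SCR was 0.588, lower than with the SCR by 0.135 ± 0.0909. D′ of the SCR with the window before Sox2 was 0.621, lower than with Sox2 by 0.103 ± 0.0618. Both of these differences were under 2 SE, so the resolution of the peak to single windows is limited.

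The calls of the 4 windows from Sox2 to the SCR show what lies behind these values. All 4 were negative in 153 libraries and all 4 positive in 28. Of the 44 libraries positive at both ends, 16 (36.4%, 95% Clopper-Pearson interval 22.4 to 52.2) were negative in at least 1 window between. In 6 of these 16 both windows between were negative, in another 6 only the window nearer the SCR, and in 4 only the window nearer Sox2. The share with a gap was close to the median of 35.3% over 3874 stretches of 4 windows on chromosome 3 (percentile 54.2). The share in which both windows between were negative, 13.6%, was at percentile 79.2, against a median of 8.70%. The number of libraries positive at both ends was at percentile 98.2. The SCR window alone was positive in 8 libraries and the Sox2 window alone in 7.

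The windows between Sox2 and the SCR also stood apart in their longer contacts, from both of these and from the windows just outside the pair. Over the 20 windows from 120 to 880 kb upstream of Sox2, the mean excess of D′ was 0.0662 ± 0.0438 for the Sox2 and SCR windows together (jackknife SE) and -0.0831 ± 0.0441 for the 2 windows between them. The difference was 0.149 ± 0.0418. Of the 20 upstream windows, 15 were above the distance mean with Sox2 and 18 with the SCR, but 1 and 3 with the windows between. Over the 20 windows downstream of the SCR at the same distances from it, the mean excess was 0.114 ± 0.0432 for Sox2 and the SCR and 0.0148 ± 0.0469 for the windows between, a difference of 0.0995 ± 0.0431. Of these 20 windows, 19 were above the distance mean with Sox2, 20 with the SCR and 13 with each of the windows between. Over chromosome 3 the same difference between outer and inner windows had an SD of 0.0361 upstream (3845 stretches of 4 windows) and 0.0376 downstream (3848 stretches), and the locus was at percentiles 99.96 and 99.6. Leaving out each experiment in turn, the difference stayed between 0.130 and 0.167 upstream and between 0.0753 and 0.132 downstream. The windows just outside the pair were like Sox2 and the SCR, each over 20 windows at 120 to 880 kb on either side of it. The window before Sox2 had a mean excess of 0.0845 ± 0.0521 upstream and 0.176 ± 0.0506 downstream. The window after the SCR had 0.0728 ± 0.0525 and 0.113 ± 0.0547. Sox2 by the same measure had 0.0394 ± 0.0475 and 0.1045 ± 0.0477. These comparisons were chosen after the linkage map had been seen. The 20 partner windows of a side share libraries, so the values are a description.

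**Figure D3:**
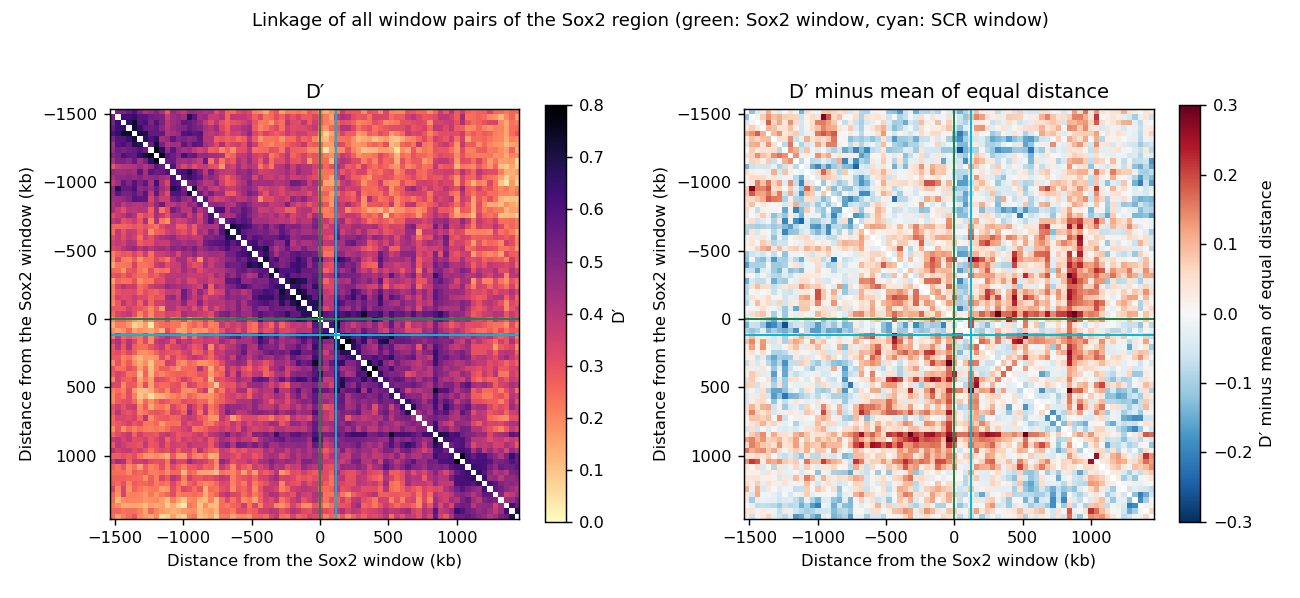
D′ of every pair of the 75 windows (left) and its excess over the mean of chromosome 3 pairs of equal distance (right), with both axes in kb from the Sox2 window, green lines through the Sox2 window and cyan lines through the SCR window. The narrow blue band between the lines in the right panel is the pair of windows between Sox2 and the SCR, with a mean excess of -0.0831 towards the upstream side.

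Beyond the SCR, the windows most strongly linked to Sox2 for their distance lay in the gene desert downstream and in the Sox2ot unit upstream. Sox2ot (chr3:34003360-34581541, plus strand) starts far upstream of Sox2, and no protein-coding gene is annotated in the 1072 kb between its end and the start of Atp11b, which encodes a phospholipid flippase. With the window 400 kb downstream (chr3:34920001-34960000), D′ was 0.658 against a distance mean of 0.421, an excess of 0.236 ± 0.0818 (unadjusted p = 0.00419, Wald test on the jackknife SE). The window 880 kb downstream had an excess of 0.233 ± 0.0766 (p = 0.00263, Wald test) and the one 840 kb downstream 0.200 ± 0.0790 (p = 0.0121, Wald test). The window 440 kb upstream, which holds Sox2ot and the pseudogene Gm5708, had an excess of 0.193 ± 0.0801 (p = 0.0168, Wald test). The lowest values lay further upstream, in the gene-poor stretch, with an excess of -0.151 ± 0.0816 at 1320 kb, -0.126 ± 0.0883 at 960 kb and -0.107 ± 0.0862 at 1240 kb. No pair of the Sox2 window passed after adjustment over the chromosome, and the lowest adjusted p was 0.608 by the same test.

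The strongest partners of the SCR window overlapped with those of Sox2. The window 440 kb upstream of Sox2 was 560 kb from the SCR and had a D′ of 0.661 with it against a mean of 0.390, an excess of 0.271 ± 0.0816 (p = 0.00104, Wald test). The window 840 kb downstream of Sox2 had an excess of 0.199 ± 0.0765 with the SCR. The window with the largest excess, 0.275 ± 0.0877 (p = 0.00191, Wald test), lay 520 kb downstream of Sox2 (chr3:35040001-35080000), and was positive in 41 libraries. With Sox2 that window had an excess of 0.165 ± 0.0908. The SCR was also linked to the Fxr1 and Dnajc19 window 600 kb upstream of Sox2 with an excess of 0.192 ± 0.0786 (p = 0.0154, Wald test), where Sox2 had 0.0688 ± 0.0803. The lowest values of the SCR were -0.0963 ± 0.0962, -0.0770 ± 0.0947 and -0.0748 ± 0.101, at 1240, 920 and 1000 kb upstream of Sox2. The lowest adjusted p of an SCR pair was 0.525.

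**Figure D4:**
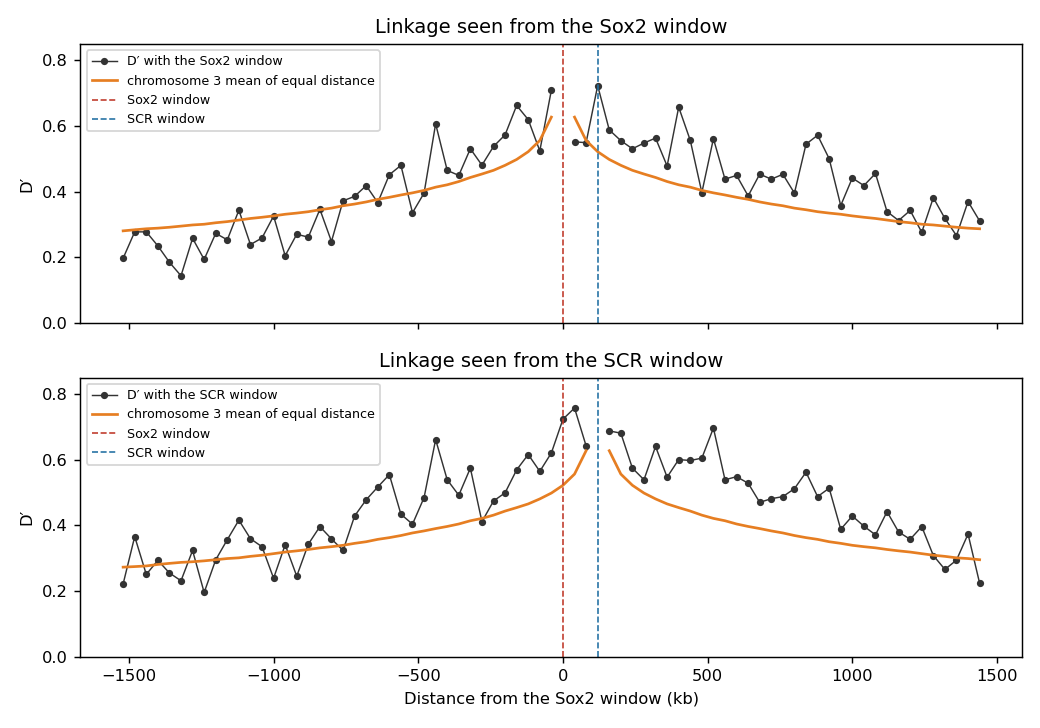
D′ of each window with the Sox2 window (top) and with the SCR window (bottom) by distance from the Sox2 window in kb, with the chromosome 3 mean of equal distance in orange. The SCR window stands at 0.723 in the upper panel, above the 0.552 and 0.550 of the nearer windows, and D′ stays above the orange line through most of the downstream desert.

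Grouped by gene content, the desert after the SCR (chr3:34760001-35640000, 22 windows) had a mean excess of 0.103 ± 0.0497 with Sox2 and 0.120 ± 0.0577 with the SCR (jackknife SE), with 21 and 22 of its windows above the distance mean. The Sox2ot body before Sox2 (10 windows) had 0.0789 ± 0.0546 with Sox2 and 0.112 ± 0.0667 with the SCR, with 9 of 10 windows above the mean for each. For the 8 windows from Ttc14, for a tetratricopeptide repeat protein, to Dnajc19 the mean excess was 0.0171 ± 0.0533 with Sox2 and 0.0875 ± 0.0615 with the SCR. Of these 8 windows, 6 and 7 were above the distance mean. The window with the start of Sox2ot, 520 kb upstream of Sox2, was in none of the blocks, and its excess was -0.0605 ± 0.0788 with Sox2 and 0.0267 ± 0.0812 with the SCR. The gene-poor stretch before Ttc14 (15 windows) had -0.0625 ± 0.0616 with Sox2, with 1 window above the mean, and -0.00148 ± 0.0674 with the SCR, with 8 above it. From Atp11b to the end of the region (9 windows) the values were 0.0253 ± 0.0539 and 0.0277 ± 0.0624, with 7 and 5 windows above the mean. The difference between the desert and the Ttc14 to Dnajc19 genes was 0.0858 ± 0.0568 for Sox2 and 0.0325 ± 0.0573 for the SCR, under 2 SE for each. The blocks were drawn with the profiles known and are given without a test.

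The calls at these partner windows were then split by whether a library held the Sox2 window, the SCR window or both. The windows had been picked by their linkage with Sox2 or the SCR in the same libraries. The shares thus restate that choice as counts and add no support to it. The window 440 kb upstream was positive in 63.6% of the 44 libraries with both, in 54.5% of the 11 with Sox2 alone, in 36% of the 25 with the SCR alone and in 3.55% of the 169 with neither. The window 520 kb downstream was positive in 52.3%, 36.4%, 36% and 2.96% of these libraries, and the window 840 kb downstream in 65.9%, 63.6%, 48% and 7.10%. At the window 400 kb downstream the shares were 59.1% and 63.6% with the Sox2 window present and 24.0% with the SCR window alone. At the window 1240 kb upstream, among the lowest for both, they were 27.3%, 36.4%, 24.0% and 12.4%. Libraries with both windows had a median autosomal coverage of 21.5% and those with neither of 16.9%. Their median number of positive windows in the region was 39.5 and 1. Co-segregation of this kind mixes the slice having passed through the region at all with closer contact, and these cannot be told apart in a single library.

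For the protein-coding genes of the region other than Sox2, likeness to the Sox2 window was measured over the 249 libraries as phi, the correlation of the calls of a pair of windows, at 120 kb or more. A gene that spans several windows was given by the one with its highest phi, which favours longer genes. Fxr1 and Dnajc19, which share a window 600 kb away, had the highest phi at 0.432, with 32 libraries positive for both windows. Next was Dcun1d1, for a factor that promotes neddylation of cullins, at 0.378 and 1280 kb. In the order below them came Ccdc144b (0.362, 1400 kb), Ttc14 and Ccdc39 in 1 window (0.347, 840 kb), Atp11b (0.339, 1200 kb), Mccc1 (0.297, 1320 kb), Acad9 (0.260, 1440 kb) and Pex5l (0.255, 1480 kb). Ccdc39 acts in the assembly of motile cilia, Mccc1 is a subunit of the enzyme that breaks down leucine, and Pex5l is a relative of the peroxisomal import receptor. The order rests on that choice, since the other window of Ccdc39, for example, had a phi of 0.207. Over all windows of these genes, the excess of D′ over the distance mean was between -0.102 and 0.0901, with an SE of 0.0776 or more, so none exceeded 2 SE. Phi of Sox2 with the SCR was 0.622.

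Insulation was read as the mean D′ between the 400 kb before and the 400 kb after a window, which is low at domain borders and high inside a domain. It was 0.468 ± 0.0337 at the Sox2 window (jackknife SE) and 0.495 ± 0.0325 at the SCR window, at percentiles 85.9 and 95.9 of chromosome 3, where the median was 0.420 and the central 90% lay between 0.344 and 0.490. The 9 windows from 40 to 360 kb downstream of Sox2 formed an unbroken run at or above percentile 95. The highest value of the region, 0.519, lay 200 kb downstream of Sox2 and the lowest, 0.371 (percentile 13.9), 840 kb upstream at Ttc14 and Ccdc39. With a square of 200 kb the values were 0.491 at Sox2 and 0.517 at the SCR, at the lower percentiles 64.8 and 81.7.

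Over the whole region, the excess of D′ was 0.0204 ± 0.0221 on average over 2775 pairs (jackknife SE). At an unadjusted p under 0.05 by the Wald test, 137 pairs (4.94%) were above the distance mean, where the share on chromosome 3 was 2.61%, and 49 pairs (1.77%) below it, where the share was 3.25%. These unadjusted counts depended on the libraries used, with 210 above and 29 below in libraries with coverage from 10 to 30%, and 100 to 184 above and 29 to 67 below when each experiment was left out. The count above was lowest without the eosin experiment and highest without the freezing after incubation experiment, and the 29 below came when either the latter or the cresyl violet experiment was left out. After adjustment over chromosome 3, 0 of the 2775 pairs of the region passed in either direction, against 12 pairs (0.00416%) above and 3 (0.00104%) below among all pairs. With phi in place of D′, 4 pairs of the region passed above the distance mean and 0 below it. On chromosome 3 phi called more pairs than D′ did, 54 (0.0187%) above and 69 (0.0239%) below. Mean D′ of the region at 120 kb was 0.531 and exceeded that of chromosome 3 by 0.00872 ± 0.0168, and at 400 kb it was 0.454, above it by 0.0324 ± 0.0221. At 2000 kb it was 0.283, above by 0.0291 ± 0.0363, and at 2600 kb it was 0.204, with a difference of -0.0252 ± 0.0473. None of the differences at the 10 distances compared passed the test. The lowest adjusted p in the region, 0.0953 by the Wald test, belonged to neighbouring windows 1000 and 1040 kb downstream of Sox2, with a D′ of 0.884 against a distance mean of 0.627.

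Averaged over its 70 partners in the region at 120 kb or more, the window 840 kb downstream of Sox2 ranked 1 of the 75 windows, with a mean excess of 0.129 ± 0.0429. The window before Sox2 ranked 3 with 0.0975 ± 0.0446 and the window after the SCR 8 with 0.0708 ± 0.0461. The SCR window ranked 7 with 0.0737 ± 0.0506 and the Sox2 window 21 with 0.0385 ± 0.0406. The windows between them ranked 75 and 73, with -0.0579 ± 0.0434 and -0.0526 ± 0.0452. The spread of these means was wide, so the order of neighbours in it is not resolved.

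The protocols were compared to see whether the sampling of the locus depended on how the libraries were made. The Sox2 window was positive in 10 of the 11 experiments, from 1 of 11 proteinase K libraries and 3 of 23 kit size libraries to 9 of 26 cresyl violet and 8 of 20 propidium iodide libraries, and in 0 of 10 SYBR Gold libraries (upper limit of the 95% Clopper-Pearson interval 30.9%). The SCR window was positive in every experiment, from 2 of 11 proteinase K libraries to 10 of 20 propidium iodide libraries. The intervals of all the experiments overlapped. After subtraction of each library's autosomal coverage, neither the Sox2 window (F = 1.11, permutation p = 0.356, adjusted p = 0.851) nor the SCR window (F = 0.555, permutation p = 0.851, adjusted p = 0.851) differed detectably between experiments. The test permuted the libraries 100000 times and was adjusted over 3 measures, the third being the share of region windows that were positive.

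**Figure D5:**
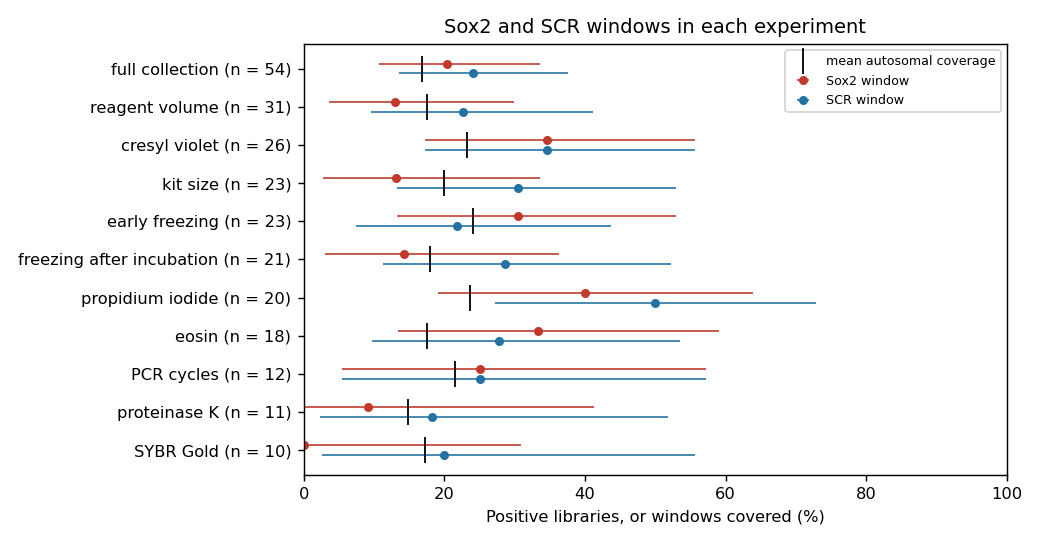
Percent of libraries in which the Sox2 window (red) and the SCR window (blue) were positive in each of the 11 experiments, with 95% Clopper-Pearson intervals, and the mean autosomal coverage of the experiment (black tick). The intervals of both windows include the mean coverage in every experiment except the SCR window in the propidium iodide test, where 50.0% of 20 libraries were positive.

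The 2 windows were positive together in at least 1 library of each of the 10 experiments with a positive Sox2 window. Within these experiments D′ was above the experiment's own mean for 120 kb pairs of chromosome 3 in 9 of 10, in 4 of them at the maximum of 1. In the full collection it was 0.761 against 0.545, with 9 of 11 Sox2 libraries also positive for the SCR. In the reagent volume, propidium iodide, PCR cycle and proteinase K experiments every library with the Sox2 window had the SCR window, at 4, 8, 3 and 1 libraries, so D′ was 1 there. It was 0.700 against 0.432 in the eosin, 0.713 against 0.626 in the early freezing, 0.660 against 0.656 in the cresyl violet and 0.521 against 0.50 in the kit size experiment. In the freezing after incubation experiment it was 0.533 against 0.550. Of the 14 groups within experiments that gave a D′, 11 were above their own mean, 9 of them at the maximum of 1, and 3 were below it. Those below were the unstained cresyl violet libraries (0.286 against 0.689), the tubes frozen late (0.313 against 0.560) and the small-kit libraries (0.333 against 0.551), each with 3 Sox2 libraries. With 1 to 11 Sox2 libraries per experiment these values have wide errors. D′ is 1 whenever every library of the rarer window also holds the other, which is easily reached with few libraries. How often other 120 kb pairs exceed their experiment's or group's mean was not counted. The tallies over experiments and groups thus do not measure how well the linkage repeats. With experiments in place of libraries left out in the jackknife, the excess of the pair was 0.201 ± 0.0724.

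Within experiments, 11 contrasts of 2 arms were tested at both windows, 22 tests in all, by Fisher's exact test (two-sided), and 0 passed after adjustment and 0 at an unadjusted p under 0.05. The lowest p was 0.0687 (Fisher's exact test, adjusted p = 0.662), for the SCR window in 1 of 11 large-kit and 6 of 12 small-kit libraries. The Sox2 window was positive in 4 of 11 libraries of reagent protocol B and in 0 of 10 of protocol A and 0 of 10 of protocol C, each at p = 0.0902 (Fisher's exact test, adjusted p = 0.662). With joined windows of 80 kb, 1 test had an unadjusted p under 0.05 (p = 0.0373, Fisher's exact test, adjusted p = 0.817). Arms of this size leave large differences undetected.

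Staining with cresyl violet was also tested window by window. In 16 stained and 10 unstained libraries the Sox2 window was positive in 6 and 3, and the SCR window in 7 and 2 (Fisher's exact test, p = 1 and p = 0.399). Of the 75 windows of the region, 0 passed at an unadjusted p under 0.05, where 2.61% of 59680 windows genome-wide did, and 0 passed after adjustment, where the share was 0%. In the full collection against all other libraries the Sox2 window was positive in 11 of 54 and 44 of 195, and the SCR window in 13 of 54 and 56 of 195 (Fisher's exact test, p = 0.854 and p = 0.607). Here 0 of 75 windows passed unadjusted, against 6.59% of 63543 genome-wide, and 0 after adjustment, against 0%. Windows of the region were often positive together, so they do not make 75 separate tests, and the full collection is an experiment of its own, so experiment and protocol cannot be told apart in that comparison.

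Sox2 was set beside 15 other genes of the pluripotency network, each by the window of its start, 1 of them matched by an older symbol. All 15 windows were positive in more libraries than the autosomal median of 49, from 51 libraries for Zfp42 to 82 for Nanog, with a median of 59. That median covers windows with and without genes. The share of other gene windows above it was not counted, so the trait cannot be credited to this list. The Sox2 window, at 55, was equal to Klf4 and Klf5 and below the 58 of Pou5f1. For 8 of the 15 genes, phi with the Sox2 window was above 0.0343, the median of the 55129 mapped windows on autosomes other than chromosome 3, and the median of the list was 0.0344. The highest phi was that of Klf4, a factor that helps to reprogram somatic cells, at 0.253 (percentile 99.96). Klf4 and Sox2 windows were positive together in 23 libraries, where independent sampling would give 12.1. Klf2, a related factor, had 0.119, and the nuclear receptor gene Esrrb 0.0959. The lowest were Fgf4, a target of Sox2 and Oct4, at -0.0746 and Pou5f1 at -0.0415. The median phi with windows of other chromosomes was itself above 0, and these values are a description.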

How the data were processed

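Multiplex-GAM libraries of 46C mouse ES cells were analysed from the deposited segregation table. Per the study's methods, the authors aligned reads to mm9 with Bowtie2 (version 2.1 by the submitters' processing notes), removed PCR duplicates with Samtools and used GAMtools to call 40 kb windows that held enough reads (threshold 4). The deposited values are calls of 0 or 1 for libraries that had passed the authors' quality control. They keep no counts, so depth is unknown and no count model was used. All columns were matched to samples by library name.

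D′ was computed for chromosome 3 pairs up to 3 Mb apart of windows positive in at least 25 libraries, its error by a delete-1 jackknife over libraries, and p by a two-sided Wald test adjusted with the Benjamini-Hochberg method. The test was run on simulated calls with planted linkage far stronger than the excess of Sox2 and the SCR. Its power for an excess of that size was not measured. Detection was compared with Fisher's exact and permutation tests. Clopper-Pearson intervals cover the sampling of libraries only. Insulation used a square of 400 kb. Alternatives were another background, window minimum, linkage measure, window size, a square of 200 kb, error, coverage range (10 to 30%) and leaving out libraries or experiments.

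Windows named are those of Sox2, the SCR and the 2 between, the 5 highest and 3 lowest partners of each at 120 kb or more, the 5 most and 3 least often positive windows, all protein-coding genes of the region and a list of 15 pluripotency genes. The members and lists were chosen with earlier results of these data known. Python 3.11.15, numpy 2.4.6 and scipy 1.17.1 were used with GENCODE vM1 on NCBIM37. Gene symbols were updated through RefSeq names.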

Additional observations from a re-analysis of the deposited data

Results flagged for a closer look

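In 9 groups of 4 to 10 libraries, the percent of the 75 region windows that were positive was checked for a library far from its group. By chance the check marks about 1 in 20 groups of normally distributed values. These percents were skewed, with many low values and a few high ones, so chance can mark more of them. It marked 2 libraries. Among the 10 unstained libraries of the SYBR Gold test, 1 had 74.7% of the region's windows positive, where the next had 20.0% and the median was 5.33%. Among the 6 libraries with 2 ul of proteinase K, 1 had 72.0%, where the next had 14.7% and the median was 0%. Of these 2 libraries, 1 was positive for the Sox2 window and both for the SCR window. Without them, an alternative chosen after seeing the data, the linkage excess of Sox2 and the SCR was 0.198 ± 0.0729 (unadjusted p = 0.00706, jackknife over libraries), against 0.201 with them.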

How the results depend on the processing

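Of 154 alternative values for 13 results, 150 kept their direction and their side of the threshold, or stayed within the reported error. None reversed, but counts, percents and F values have no direction to reverse. The adjusted p of Sox2 and the SCR was 0.681 as reported, so no pass could be lost. The unadjusted p of this pair crossed the threshold with coverage from 10 to 30%, from 0.00585 to 0.0847 (Wald test), and was counted as kept. All 17 contrast runs without 1 library gave a lowest p of 0.0687 (Fisher's exact test). It came from the kit size experiment, from which no library was left out. The excess of Sox2 and the SCR was 0.202 against all autosomes, 0.147 ± 0.0846 in the 198 libraries with coverage from 10 to 30%, where its unadjusted p was 0.0847 (jackknife), and 0.182 ± 0.0589 in joined windows of 80 kb. Leaving out each experiment in turn gave 0.161 to 0.249. With phi in place of D′ the excess was 0.141 ± 0.0571 (unadjusted p = 0.0143, Wald test on the jackknife SE). That was at percentile 97.1 of pairs of equal distance. The adjusted p of the pair ranged from 0.297 to 1.00 over the alternatives. The number of region pairs above the distance mean after adjustment was 4 with phi in place of D′ (54 on all of chromosome 3), and 0 to 1 when each experiment was left out (3 to 18 on all of chromosome 3), the 1 arising without the full collection, the kit size or the propidium iodide experiment. The number below it stayed at 0. With a square of 200 kb, insulation was at percentiles 64.8 (Sox2) and 81.7 (SCR), against 85.9 and 95.9 with 400 kb.

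No paired analysis was possible because the labels carry well names and no replicate number shared between groups. Depth cannot be read from calls. Windows of the region were positive in 40 to 69 libraries each, and the excess of D′ of a Sox2 or SCR pair had a jackknife SE from 0.0670 to 0.103. Windows of 40 kb hold the SCR together with flanking DNA.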
